A study of Homo sapiens with 6 samples.

Results

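Expression of claudins and tight junction proteins was examined in SUM159 oncospheres. The genes considered were CLDN1, CLDN3, CLDN4, CLDN7, CLDN12, OCLN, TJP1 and F11R. Their probe sets were those annotated to exactly 1 of these symbols, and 14 of the 54613 tested probe sets met this, for 7 of the 8 genes. CLDN1, CLDN3, CLDN4 and TJP1 had 2 probe sets each, OCLN had 4, and CLDN7 and CLDN12 had 1. No probe set was annotated to F11R, so F11R was not analysed here. A further probe set that CLDN12 shares with PTTG1IP2 was left out. The genes were selected on earlier results of the same group comparison, in which CLDN1 differed. The differences between groups are therefore given as descriptions, with standard errors (SE) and 95% intervals but without p-values.

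SUM159 is an established human breast cancer cell line. In the arrays labelled SCGB3A1 (n = 3), the cells carried a lentiviral vector, pLVX-Puro by the study's methods, with a synthesized human cDNA of SCGB3A1, a small secreted protein of the secretoglobin family. In control arrays (n = 3), they carried an empty vector. Per the methods, infected cells were selected in puromycin (2 µg/ml, 7 days), and both groups were then cultured for 5 days as floating oncospheres, from 12500 cells/ml, in HuMEC medium with BSA and B27 on plates to which cells barely attach. The labels call the arrays biological replicates but do not state whether each was a separate infection, and neither they nor the methods say whether the cells were a pool or a clone, so the spread between arrays may be partly technical.

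Tight junctions seal the space between neighboring epithelial cells. Claudins, which cross the membrane 4 times, form the strands of the junction and set which ions and solutes pass, occludin joins them in the strand, and JAM-A, the product of F11R, is an immunoglobulin-like adhesion protein beside them. ZO-1, the product of TJP1, binds their tails inside the cell and ties them to actin. Breast cancers with low levels of CLDN3, CLDN4 and CLDN7 and with mesenchymal traits are known as claudin-low, a group to which SUM159 is commonly assigned.

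The values are on the log2 scale after robust multiarray average (RMA) normalization, with a median of 6.92 over all tested probe sets and quartiles of 6.44 and 8.16. Probe sets differ in affinity, so an order of levels between probe sets need not follow transcript amounts. Such an order served to pick the probe set that stands for a gene, and a gene to name in each list. Cell identity was checked with marker genes. EPCAM averaged 6.18 in the arrays labelled SCGB3A1 and 6.19 in control, and CDH1 (E-cadherin) 6.28 and 6.27 in the same order. VIM averaged 14.37 in the arrays labelled SCGB3A1 and 14.42 in control, and KRT18 averaged 11.52 and 11.44 in that order. The epithelial markers EPCAM and CDH1 therefore read below the lower quartile of the table, whereas KRT18 and VIM read far above its upper quartile. Endothelial and haematopoietic markers (7 probe sets) averaged 6.05 to 8.26 in the arrays labelled SCGB3A1 and 6.18 to 8.28 in control. PECAM1 gave the highest of these values in both groups, above the upper quartile of the table. The probe set of SCGB3A1 averaged 6.74 ± 0.16 in the arrays that carry its name and 6.91 ± 0.13 in control (SD, n = 3 each), with overlapping groups (limma adjusted p = 0.83), and whether its probe set covers the sequence in the vector is unknown. The study reports that qPCR showed expression of the introduced genes in infected cells after selection. Those measurements are not part of these arrays, so each direction below holds for the arrays as labelled. One library, control replicate 2, stood apart from the others, with correlations of 0.989 to 0.993 to them, whereas every other array had a best correlation of 0.995 to 0.996.

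CLDN1 was the only gene of the group whose probe sets differed between the groups without overlap. CLDN1 is a barrier-forming claudin that the epidermis requires to hold water. Its probe set with the higher mean read 9.15, 9.10 and 9.03 in the arrays labelled SCGB3A1 (replicates 1 to 3), and 8.61, 8.57 and 8.49 in control. All 3 arrays labelled SCGB3A1 thus lay above all 3 controls, with a gap of 0.42 between the lowest of them and the highest control. The log2 fold change was 0.54 ± 0.07 (SE; 95% interval 0.38 to 0.70), a 1.45-fold difference (1.30 to 1.62). The second probe set read 7.75, 7.84 and 7.73 in the arrays labelled SCGB3A1, and 7.38, 7.44 and 7.40 in control. These groups were also apart, by 0.29, and the log2 fold change was 0.37 ± 0.07 (95% interval 0.22 to 0.53). The 2 CLDN1 probe sets therefore pointed the same way with intervals that overlapped. Averaged over both, the log2 fold change was 0.45 ± 0.05 (SE).

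Across the whole table, 10 of 54613 probe sets (0.0183%) passed a limma adjusted p of 0.05, 0.0165% as higher and 0.00183% as lower in the arrays labelled SCGB3A1, and 1 of the 14 tight junction probe sets, that of CLDN1 with the higher mean, was among them. Probe sets whose groups did not overlap made up 11.2% of the table (5.95% above and 5.25% below control), and 2 of the 14, both of CLDN1, were of this kind. Since CLDN1 was chosen for this difference, nothing is read from either count. CLDN1 no longer passed with any 1 of the 6 arrays left out, where its log2 fold change stayed between 0.51 and 0.57. Nor did it pass when probe sets with a mean below the median were set aside, or with a block for replicate numbers. Its log2 fold change was 0.55 without control replicate 2, the library that stood apart.

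**Figure D1:**
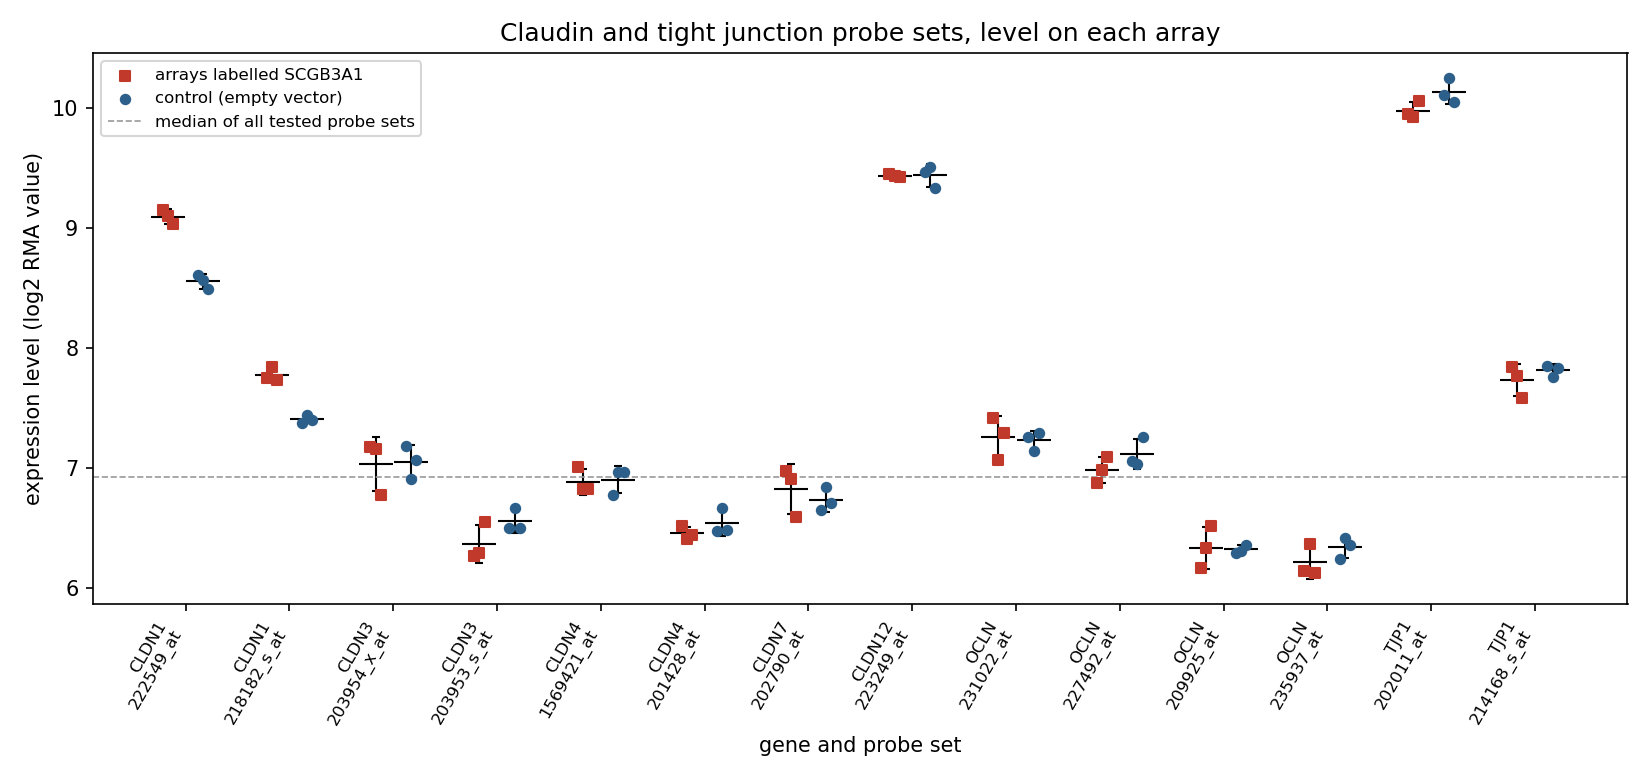
Expression level (log2 RMA value, vertical axis) of each of the 14 tight junction probe sets (horizontal axis) on each array, with squares for the arrays labelled SCGB3A1, circles for control, bars for the mean and SD (n = 3 per group) and a dashed line at the median of all tested probe sets, 6.92. The groups are apart for both CLDN1 probe sets, and overlap for the other 12.

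The claudins CLDN3, CLDN4 and CLDN7 are typical of luminal and other simple epithelia. CLDN3 and CLDN4 are receptors of a Clostridium perfringens toxin and are neighbors on chromosome 7, with 0 protein-coding genes between them, and CLDN7 lies along the lateral membrane, where it binds EPCAM. All 5 of their probe sets, and all 4 of OCLN, read between 6.13 and 7.42 on every array. The CLDN3 probe set with the higher mean read 7.17, 7.16 and 6.77 in the arrays labelled SCGB3A1, and 7.18, 6.90 and 7.07 in control. The groups overlapped, with a log2 fold change of -0.018 ± 0.11 (SE). Replicate 3 was the low array of those labelled SCGB3A1, and the value was 0.11 without it. The other CLDN3 probe set read 6.26, 6.29 and 6.55 in the arrays labelled SCGB3A1, and 6.50, 6.67 and 6.50 in control. Here the same replicate 3 was the high array of its group, and the log2 fold change was -0.19 ± 0.09 (95% interval -0.39 to 0.008). It was -0.28 without SCGB3A1 replicate 3 and -0.13 without control replicate 2.

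CLDN4 had smaller values of the difference. Its probe set with the higher mean read 7.01, 6.82 and 6.82 in the arrays labelled SCGB3A1, and 6.77, 6.97 and 6.96 in control (log2 fold change -0.016 ± 0.08 SE). The other read 6.52, 6.41 and 6.44 in the arrays labelled SCGB3A1, and 6.48, 6.67 and 6.48 in control (-0.085 ± 0.08). For both, the arrays of one group lay among those of the other. CLDN7 read 6.98, 6.90 and 6.59 in the arrays labelled SCGB3A1, and 6.65, 6.84 and 6.71 in control. Its arrays labelled SCGB3A1 spanned the controls on both sides, and the log2 fold change was 0.092 ± 0.10 (95% interval -0.13 to 0.31). Without SCGB3A1 replicate 3 it was 0.21, and without SCGB3A1 replicate 1 it was 0.015.

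CLDN12 is an unusual claudin whose tail lacks the motif by which most claudins bind ZO-1. It read 9.45, 9.43 and 9.42 in the arrays labelled SCGB3A1, and 9.47, 9.51 and 9.33 in control. The means were almost identical, 9.43 ± 0.02 and 9.44 ± 0.09 (SD, n = 3 each, in that order), and the log2 fold change was -0.0015 ± 0.07 (SE; 95% interval -0.16 to 0.16). The interval left out the size measured for CLDN1, at a level above the upper quartile of the table.

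Sequences before the annotated starts were read from RefSeq (GRCh38.p14), which held 12 windows for all 7 measured genes. They are shown for CLDN1, and for CLDN3 and CLDN4 as neighboring claudins whose groups overlapped, each as the 250 bases up to the start. Capitals mark GGGCGG on either strand, the GC box bound by Sp1-like factors. The windows are chr3:190322447-190322696 (minus strand), chr7:73770271-73770520 (minus strand) and chr7:73830746-73830995 (plus strand).
CLDN1: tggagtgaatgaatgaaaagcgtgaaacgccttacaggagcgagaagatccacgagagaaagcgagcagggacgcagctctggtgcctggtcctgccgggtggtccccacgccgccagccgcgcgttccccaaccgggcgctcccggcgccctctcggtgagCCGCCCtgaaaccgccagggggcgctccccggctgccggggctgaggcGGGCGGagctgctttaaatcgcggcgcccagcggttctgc
CLDN3: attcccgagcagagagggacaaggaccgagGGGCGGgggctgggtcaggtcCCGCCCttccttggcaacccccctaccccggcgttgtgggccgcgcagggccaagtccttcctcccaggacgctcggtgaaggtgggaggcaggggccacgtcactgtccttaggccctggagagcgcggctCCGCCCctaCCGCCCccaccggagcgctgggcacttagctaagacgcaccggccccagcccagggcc
CLDN4: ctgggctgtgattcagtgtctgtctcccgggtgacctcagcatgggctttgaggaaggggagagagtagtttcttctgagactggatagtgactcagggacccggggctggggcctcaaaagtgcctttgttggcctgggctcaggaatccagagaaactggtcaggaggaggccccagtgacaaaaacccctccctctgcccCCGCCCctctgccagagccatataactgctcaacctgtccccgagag

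The GC box letters occurred 2 times before CLDN1, 4 times before CLDN3 and 1 time before CLDN4, and in 42.5% of 34943 windows of this length. The share of G and C was 68.8% before CLDN1, 71.6% before CLDN3 and 58.8% before CLDN4, against a median of 58.0%, and the dinucleotide CG occurred 28, 19 and 4 times in that order, against a median of 11. TATAAA (in 10.8% of windows) and the grainyhead letters AACNNGTT (in 3.0%) were found in none of the 12 windows, and the AP-1 letters TGANTCA (in 6.59%) only before CLDN4, where they occurred 2 times. Each motif was searched on both strands, and these are matches of letters only.

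Occludin, a protein with 4 membrane passes that is unrelated to claudins in sequence, had 4 probe sets. The one with the highest mean read 7.42, 7.07 and 7.29 in the arrays labelled SCGB3A1, and 7.26, 7.14 and 7.29 in control, a log2 fold change of 0.026 ± 0.09 (SE). The other 3 gave log2 fold changes of 0.015 ± 0.09, -0.13 ± 0.09 and -0.14 ± 0.09. The groups overlapped in each of the 4. With each array left out, they ranged from -0.054 to 0.12 for the probe set with the highest mean, and from -0.074 to 0.10, -0.20 to -0.084 and -0.19 to -0.065 for the others, so that the sign of the 2 nearest 0 was not settled.

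TJP1, which encodes the scaffold ZO-1, had negative log2 fold changes for both of its probe sets, and the groups overlapped in each. The probe set with the higher mean read 9.95, 9.92 and 10.05 in the arrays labelled SCGB3A1, and 10.11, 10.25 and 10.04 in control. The groups met at their edges, since SCGB3A1 replicate 3 lay just above control replicate 3. The log2 fold change was -0.16 ± 0.08 (SE; 95% interval -0.33 to 0.015), and it was -0.10 without control replicate 2, which was the highest array, and -0.20 without control replicate 3, the lowest control. The other read 7.84, 7.77 and 7.58 in the arrays labelled SCGB3A1, and 7.85, 7.76 and 7.83 in control (-0.081 ± 0.08). SCGB3A1 replicate 3 was the lowest array, and the value was -0.0072 without it and -0.14 without SCGB3A1 replicate 1. Averaged over both probe sets, TJP1 gave -0.12 ± 0.05 (SE; 95% interval -0.23 to -0.004). This interval is not adjusted for the number of genes. TJP1 did not pass the adjusted threshold in this fit, which 4 of 19775 genes passed.

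The E-box CAGGTG, the letters that SNAI1 and ZEB1 bind in epithelial promoters, was absent from the windows of CLDN1, CLDN3, CLDN4 and CLDN12 and occurred in 17.5% of all windows. One of the 2 CLDN7 windows held 4 matches. It is shown for its last 30 bases (chr17:7262479-7262508, minus strand), which hold 2 of them, in capitals, 1 on each strand.
CLDN7: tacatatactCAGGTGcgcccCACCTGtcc

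Both OCLN windows, which overlap, and 1 of 4 TJP1 windows held 1 match each. The E-box letters stood before CLDN7, OCLN and TJP1, whose log2 fold changes were 0.092, 0.026 and -0.16 for the probe set with the highest mean. They were absent before CLDN1 (0.54), and also before CLDN3 (-0.018), CLDN4 (-0.016) and CLDN12 (-0.0015). The number of windows differed between genes, and a link between these letters and the differences was not tested.

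Outside CLDN1, the 95% intervals of all 12 single probe sets held 0. None of these 12 probe sets passed the adjusted threshold in limma, which 0.0183% of the table passed, so nothing is read from that count. Of these 12, 9 had a negative and 3 a positive log2 fold change, with a median of -0.049, against 0.0026 over all tested probe sets, of which 51.0% were positive. With 1 probe set per gene, 4 of the 6 genes outside CLDN1 were negative and 2 positive, with a median of -0.0090, against 0.011 over all genes. Their intervals reached at most from -0.39 (CLDN3) to 0.31 (CLDN7). A difference of 0.54, the size for the CLDN1 probe set with the higher mean, lay outside each of them on this scale. The size for the second CLDN1 probe set, 0.37, lay within that CLDN3 interval, on its negative side only. For the 9 probe sets of CLDN3, CLDN4, CLDN7 and OCLN, whose values lay near the low end of the scale, a fold change on this scale can understate that of the transcript. In bulk RNA, fewer cells with a transcript and less of it per cell cannot be told apart.

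**Figure D2:**
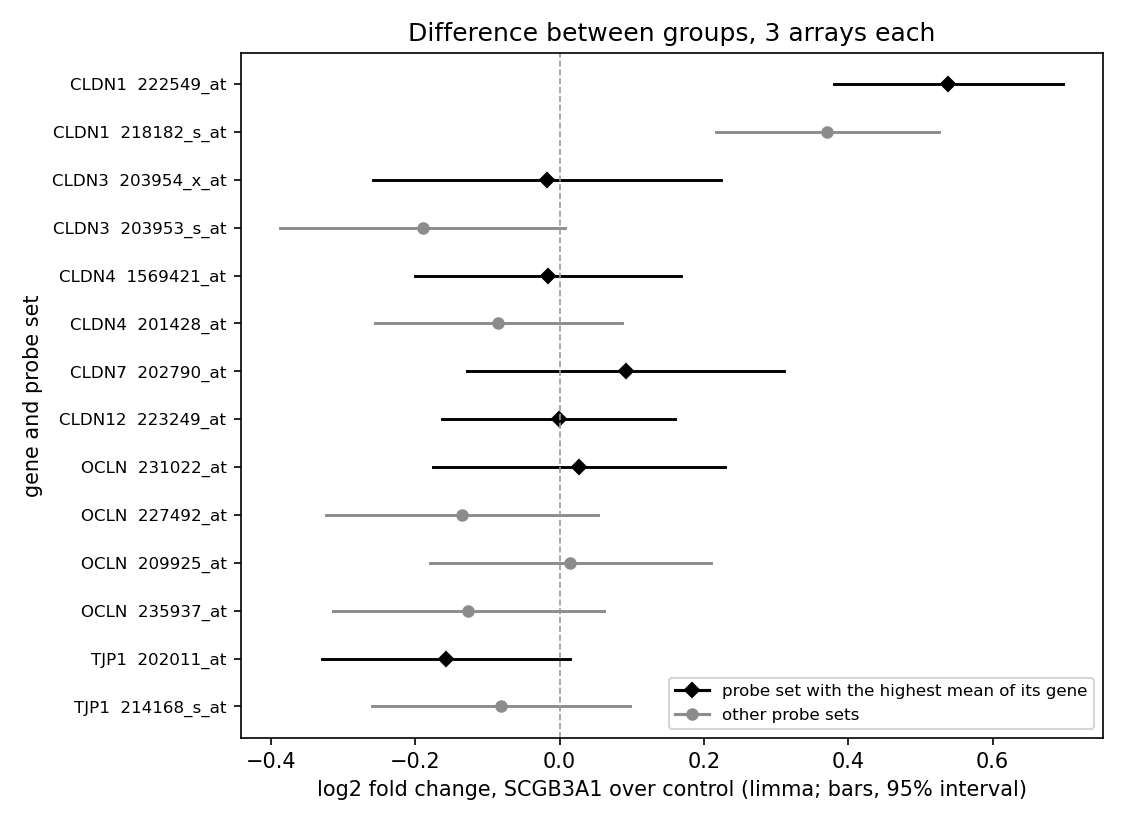
Log2 fold change of the arrays labelled SCGB3A1 over control (horizontal axis) for the 14 tight junction probe sets (vertical axis), with 95% limma intervals from 3 arrays per group, diamonds for the probe set with the highest mean of a gene and circles for the others. The 2 CLDN1 probe sets lie at 0.54 and 0.37, and the other 12 intervals cross 0.

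The arrays also differed in how far these genes strayed from their group. Over the 12 probe sets outside CLDN1, the mean absolute deviation from the own group mean was 0.10, 0.070 and 0.12 in replicates 1 to 3 labelled SCGB3A1, and 0.064, 0.088 and 0.058 in control replicates 1 to 3. Over all probe sets it was 0.071, 0.066 and 0.076 in the arrays labelled SCGB3A1, and 0.068, 0.088 and 0.068 in control. SCGB3A1 replicates 1 and 3 thus strayed farthest in these genes, while control replicate 2 strayed in them as far as in the table at large. The largest single deviation was -0.26, for the CLDN3 probe set with the higher mean in SCGB3A1 replicate 3.

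The genes whose profile over the 6 arrays lay nearest to that of CLDN1 were sought among 19774 other genes, each by its probe set with the highest mean, after subtracting that mean. By Euclidean distance on the log2 scale, the 5 nearest were DSP (0.15), MAP7D2 (0.16), AKR1B10 (0.20), CLCA2 (0.20) and LAMB3 (0.21). DSP encodes desmoplakin, the plaque protein that anchors keratins at desmosomes, and LAMB3 a chain of the laminin of epidermal basement membrane. CLCA2 is a membrane protein of basal epithelial cells, AKR1B10 an aldo-keto reductase and MAP7D2 a microtubule-binding protein. DSP averaged 10.37 ± 0.09 in the arrays labelled SCGB3A1 and 9.92 ± 0.007 in control (SD, n = 3 each). For all 5 genes the arrays labelled SCGB3A1 lay above the controls, as the measure requires, with log2 fold changes of 0.41 (LAMB3) to 0.57 (AKR1B10). Of the genes considered from the start, those measured besides CLDN1 lay 0.61 (CLDN7) to 0.88 (TJP1) from it. The second CLDN1 probe set lay at 0.25 and was the 20th nearest of 54612 probe sets.

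**Figure D3:**
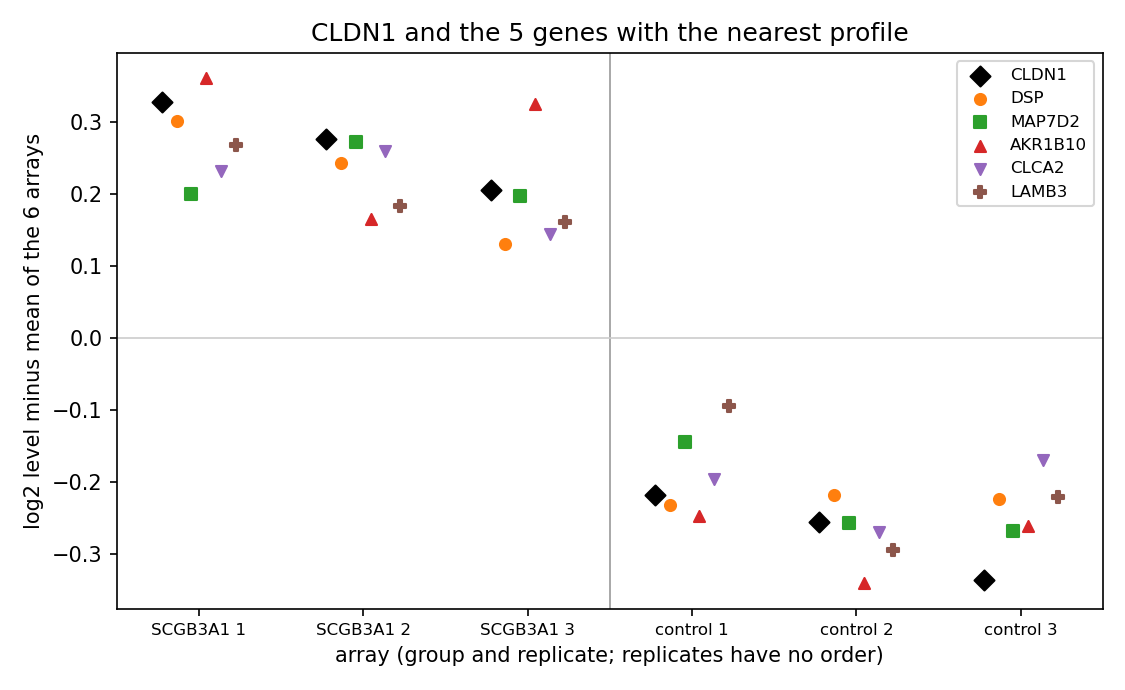
Log2 level minus the mean of the 6 arrays (vertical axis) for CLDN1 (diamonds) and the 5 genes with the nearest profile, by array (horizontal axis, with the arrays labelled SCGB3A1 on the left and control on the right; replicates have no order). All 6 genes are above 0 in the arrays labelled SCGB3A1 and below 0 in control, with distances to CLDN1 of 0.15 to 0.21.

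Basal keratins mark the cells of the deepest layer of stratified epithelium. KRT5 had a log2 fold change of 0.56 ± 0.09 (SE) and KRT14 of 0.56 ± 0.11, and for both all arrays labelled SCGB3A1 lay above all controls, as they did for 5.95% of the table. KRT5 averaged 12.46 in the arrays labelled SCGB3A1 and 11.89 in control. ZEB1, a repressor of epithelial genes, read -0.25 ± 0.08 with groups apart downward, as 1 of 4 mesenchymal markers. Among 4 fibroblast markers, LUM (0.52 ± 0.11) and PDGFRB (0.26 ± 0.08) were apart upward and COL1A1 (-0.21 ± 0.08) downward, where 11.2% of all probe sets were apart in either direction. None of these passed the adjusted threshold (limma adjusted p = 0.17 for KRT5, 0.29 for KRT14, 0.72 for ZEB1, 0.32 for LUM, 0.73 for PDGFRB and 0.78 for COL1A1), and their part in the CLDN1 difference was not tested. KRT5 alone of these met the looser signature criteria given below, as did the CLDN1 probe set with the higher mean and 0.0311% of the table. The 5 simple epithelial markers overlapped between groups, from -0.059 (KRT19) to 0.085 (KRT18).

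Other genes of the tight junction were taken from 5 lists, which hold 66 genes, of which 57 had a probe set of their own (130 in all). In limma, 0 of the 57 passed an adjusted p of 0.05, and 0 met the looser criteria by which the study listed its signature (adjusted p under 0.25, with p under 0.05 and a change of more than 0.5 on the log2 scale), which 17 probe sets (0.0311%) met over the table. An unadjusted p under 0.05 was found for 12 of 130 probe sets, against 6.20% of all probe sets. With 1 probe set per gene, the groups were apart for 9 of 57 genes (6 above control and 3 below), against 12.3% of all genes. The median log2 fold change over the 57 was 0.014, against 0.011 over all genes.

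Among 15 other claudins, the median log2 fold change was 0.031. CLDN19, which in the kidney takes part in magnesium reabsorption, read 8.62, 8.44 and 8.32 in the arrays labelled SCGB3A1, and 8.17, 7.61 and 8.04 in control. The groups were apart, but the controls spread widely, with control replicate 2 the lowest, and the log2 fold change of 0.52 ± 0.13 (SE) did not pass (limma adjusted p = 0.54). Its other probe sets reached down to 0.036. CLDN11, a claudin of myelin and of Sertoli cells, read 7.13, 7.31 and 7.43 in the arrays labelled SCGB3A1, and 7.57, 7.71 and 7.57 in control. These groups were apart downward, and -0.33 ± 0.09 did not pass either (limma adjusted p = 0.68), with up to 0.095 for its other probe sets. CLDN15, a channel-forming claudin of the gut and the one with the highest mean, gave 0.054 ± 0.09 (limma adjusted p = 0.95).

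Among 10 other membrane proteins the median was 0.032. CXADR, an adhesion receptor also used by coxsackie and adenoviruses, read -0.072 ± 0.08 (SE; limma adjusted p = 0.92). LSR, the lipolysis-stimulated receptor of tricellular contacts, read 0.18 ± 0.08 (adjusted p = 0.81), and MARVELD2 (tricellulin), which seals the same contacts, -0.13 ± 0.09 (adjusted p = 0.86). Scaffolds (11 genes, median 0.038) held TJP3 (ZO-3) at 0.20 ± 0.07 (adjusted p = 0.76), the angiomotin-like proteins AMOTL1 at 0.15 ± 0.08 (adjusted p = 0.82) and AMOTL2 at -0.20 ± 0.08 (adjusted p = 0.78). The groups were apart for LSR, TJP3 and AMOTL2, and overlapped for MARVELD2, CXADR and AMOTL1. Other probe sets reached down to 0.039 for TJP3 and -0.027 for AMOTL1, and up to -0.018 for MARVELD2 and 0.020 for CXADR.

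Polarity proteins, which place the junction between the apical and lateral membrane, gave a median of -0.021 over 10 genes. Of these, 9 were negative, some only slightly, such as PARD3 (-0.0027) and CRB3 (-0.0038). Over all genes 54.3% were positive, as were 12 of 15 other claudins and 9 of 11 scaffolds. PARD6B, an adaptor of the PAR complex, read -0.34 ± 0.10 (SE; limma adjusted p = 0.72) and its relative PARD6G 0.24 ± 0.08 (adjusted p = 0.74), while PRKCI, the atypical protein kinase C of that complex, read -0.089 ± 0.07 (adjusted p = 0.88). PARD6B and PARD6G were apart in opposite directions by these probe sets. Other probe sets reached up to 0.13 for PARD6B and down to -0.0025 for PARD6G. Regulators at the junction (11 genes, median -0.019) included MYLK, the kinase that contracts the actin ring, at -0.27 ± 0.10 (adjusted p = 0.76), the protease ST14 (matriptase) at 0.11 ± 0.09 (adjusted p = 0.88) and the ZO-1 partner YBX3 at -0.079 ± 0.13 (adjusted p = 0.95). The groups overlapped for these 3 genes. Their other probe sets reached up to 0.14 for MYLK and 0.12 for YBX3, and down to -0.094 for ST14.

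**Figure D4:**
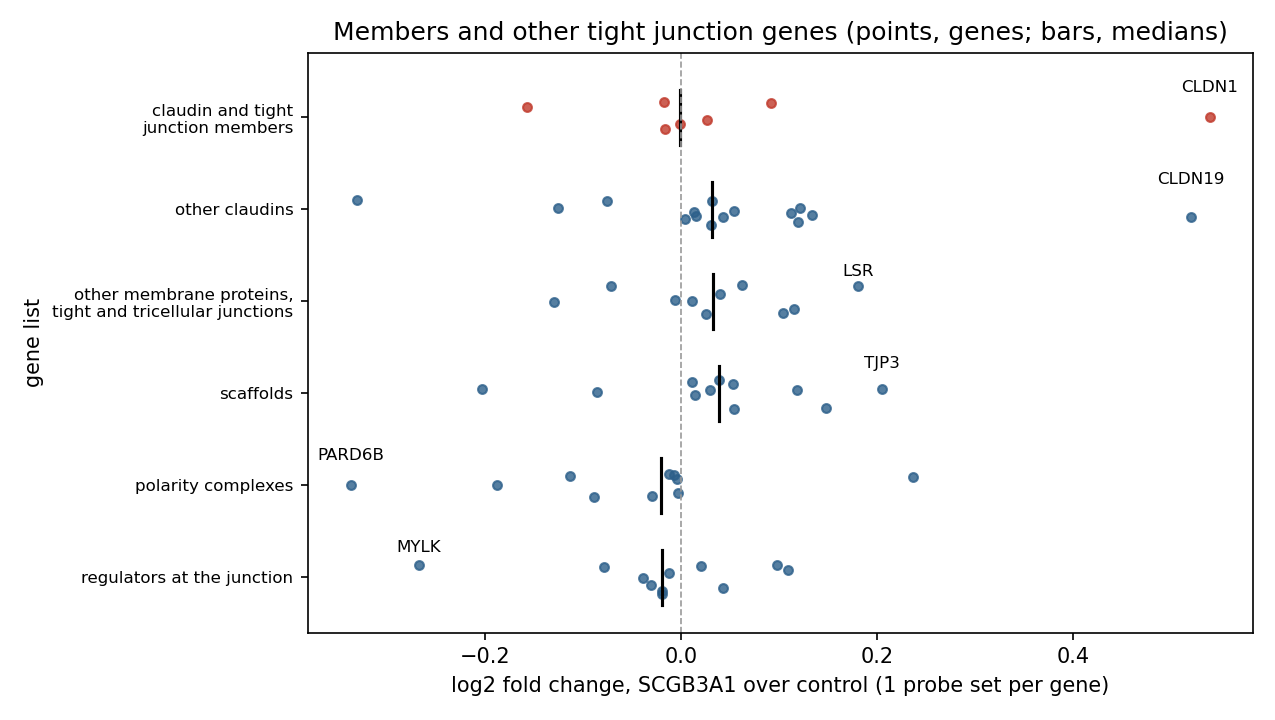
Log2 fold change of the arrays labelled SCGB3A1 over control (horizontal axis) with 1 probe set per gene, for the 7 measured members and for the 5 lists of other tight junction genes (rows), with points for genes and bars for medians. CLDN1 (0.54) and CLDN19 (0.52) lie farthest right and PARD6B (-0.34) farthest left, and the medians lie between -0.021 and 0.038.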

How the data were processed

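Total RNA (100 ng per sample) was labelled with biotin and hybridised to Affymetrix U133 Plus arrays, 1 sample per array. The authors normalized the scanner files by RMA in Chipster, and deposited log2 values that run from 5.66 to 14.66, with no detection calls. RMA makes the arrays share 1 distribution, so that a change of total RNA cannot be seen. Each array held 3101 to 3926 distinct values, so that ties between arrays occur. The number of arrays limits the precision.

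Of 54675 probe sets, 62 controls were set aside. Gene names came from the platform's annotation at GEO. Single symbols were checked against a RefSeq table (GRCh38.p14), which changed 0 of them and lacked the gene ID of 54. Of the tested probe sets, 41091 had 1 symbol, 1801 several and 11721 none. The comparison used lmFit and eBayes of limma 3.58.1 under R 4.3.3 (two-sided, Benjamini-Hochberg adjustment over all tested probe sets), after the study's empirical Bayes test. The fit was tested on simulated data.

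The members, the lists and the tests were chosen with earlier results of these data known. Named were the 7 measured members, SCGB3A1, cell markers, the 5 genes nearest to CLDN1, and in each list the gene with the highest mean, the 2 with the largest change and any that passed. Of the listed genes, 9 were not matched to a probe set of their own and were not analysed here, among them CLDN22, CLDN24, CLDN25, CLDN34 and BVES. Alternatives covered the centring, quantile normalization, a variance trend with intensity, weights for arrays, a block for replicate numbers, leaving out single arrays, filters on dim and on cross-hybridising probe sets, the signature criteria and gene means over probe sets.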

Additional observations from a re-analysis of the deposited data

How the results depend on the processing

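The count of probe sets past adjusted p 0.05 in limma, 10, was 19 with an intensity trend in the variance, 16 with array weights and 17 by the signature criteria. It was 4 with a replicate block and 6 without probe sets whose mean lay below the median, and 1 to 6 with each array left out. The count of tight junction members that passed, 1, was 0 with the replicate block, 0 without the dim probe sets (8 of the 14 remained) and 0 to 0 with each array left out. The CLDN1 probe set with the higher mean thus lost its call in 8 of 13 alternatives, with log2 fold changes of 0.51 to 0.57. The cause was not tested. The same probe set met the signature criteria, and CLDN1 passed in the fit of gene means, as 4 of 19775 genes did. Since CLDN1 was chosen for this difference, nothing is read from these calls. The median log2 fold change over the 7 members, -0.0015 (over 5 without the dim probe sets and over 6 without those ending in _x_at or _s_at), moved by less than 1 SD between arrays (0.062) in each alternative run, from -0.054 to 0.040, and no other tight junction gene passed in any of them. With array weights, the OCLN probe sets nearest 0 were -0.021 and -0.0004.

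Replicate numbers are shared by the groups. Over all probe sets, the deviations of same-numbered arrays from their group means correlated at 0.15, -0.14 and -0.087 for replicates 1 to 3. Replicate 1 correlated best with its own number in both groups, and replicates 2 and 3 did not. With 3 arrays per group this cannot settle whether the numbers pair the arrays, and the labels do not say.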
